A study of Mus musculus with 10 samples.

Results

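The genes described here are 44 genes of the mouse neural retina, taken by name from a count table of 55487 genes. They are 19 rod and general photoreceptor genes, 10 cone genes, 13 genes of inner neurons and 2 glial genes. The tissue was the RPE/choroid complex, the retinal pigment epithelium (RPE) with the vascular layer behind it, dissected from 5 control and 5 ADQ samples. All 10 samples came from iDTR mice (C57BL/6 background, allele Gt(ROSA)26Sortm1(HBEGF)Awai), which carry a diphtheria toxin receptor that needs Cre to be made, and all were given diphtheria toxin intraperitoneally. ADQ mice also carried adiponectin-Cre, which is active in adiponectin-expressing fat cells; control mice had no Cre. The series text gives daily toxin for 7 weeks for mice with Cre, and the course in control mice is not given. The sources used here give neither age nor sex, nor whether eyes were pooled or each sample was a separate animal. The p-values therefore rest on the spread among 5 samples a group, and part of that spread may be technical.

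Photoreceptors sit directly on the RPE, with their outer segments embedded in its apical processes. In rods and cones light activates an opsin, the opsin activates transducin, transducin releases the inhibition of a cyclic GMP phosphodiesterase, and the fall in cyclic GMP closes a cation channel. Rods and cones build this cascade largely from paired genes. Bipolar, horizontal, amacrine and ganglion cells carry the signal on, and Müller cells and astrocytes support them. These cells are no part of the RPE or choroid, although several of the genes are also used outside the retina.

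The libraries held 43.6 M to 64.1 M counts. Genes of the RPE and of melanocytes summed to 41000 to 57100 CPM (counts per M counts of the library, on TMM-scaled library sizes) in control and 33800 to 49900 in ADQ, so the labelled tissue was present in every library. The 19 rod and general photoreceptor genes took 0.0769% to 0.376% of all counts of a library. In tissue RNA fewer cells of a type and less RNA per cell cannot be told apart.

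Most retina genes did not divide the libraries by genotype. The typical rod gene was highest in ADQ 5, ADQ 4, control 1 and ADQ 3, followed by ADQ 1, and low in ADQ 2 and the other 4 controls, so that the groups overlapped. Of the 42 members that passed the count filter none was called between ADQ and control by edgeR's quasi-likelihood test (adjusted p under 0.05), where 0.827% of all 20684 genes tested were called. An unadjusted p under 0.05 was found for 4 of the 42 (9.52%), against 13.8% of all genes. The median log2 fold change of the 42 was 1.08, against 0.01 over all genes. Of the 42, 37 lay above 0, against 51.8% of all genes. The members share the same libraries, so these are not separate observations. With the level of 36 other photoreceptor genes as a covariate none of the 42 was called. Of the 19 rod and general photoreceptor genes, 17 correlated with the 35 tested genes of that list at r of at least 0.9. A fall of their differences in this fit is therefore built in. Of the 42, 41 had groups that overlapped. The 1 that did not is 2.38% of the members, near the 3.16% of all genes tested.

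**Figure D1:**
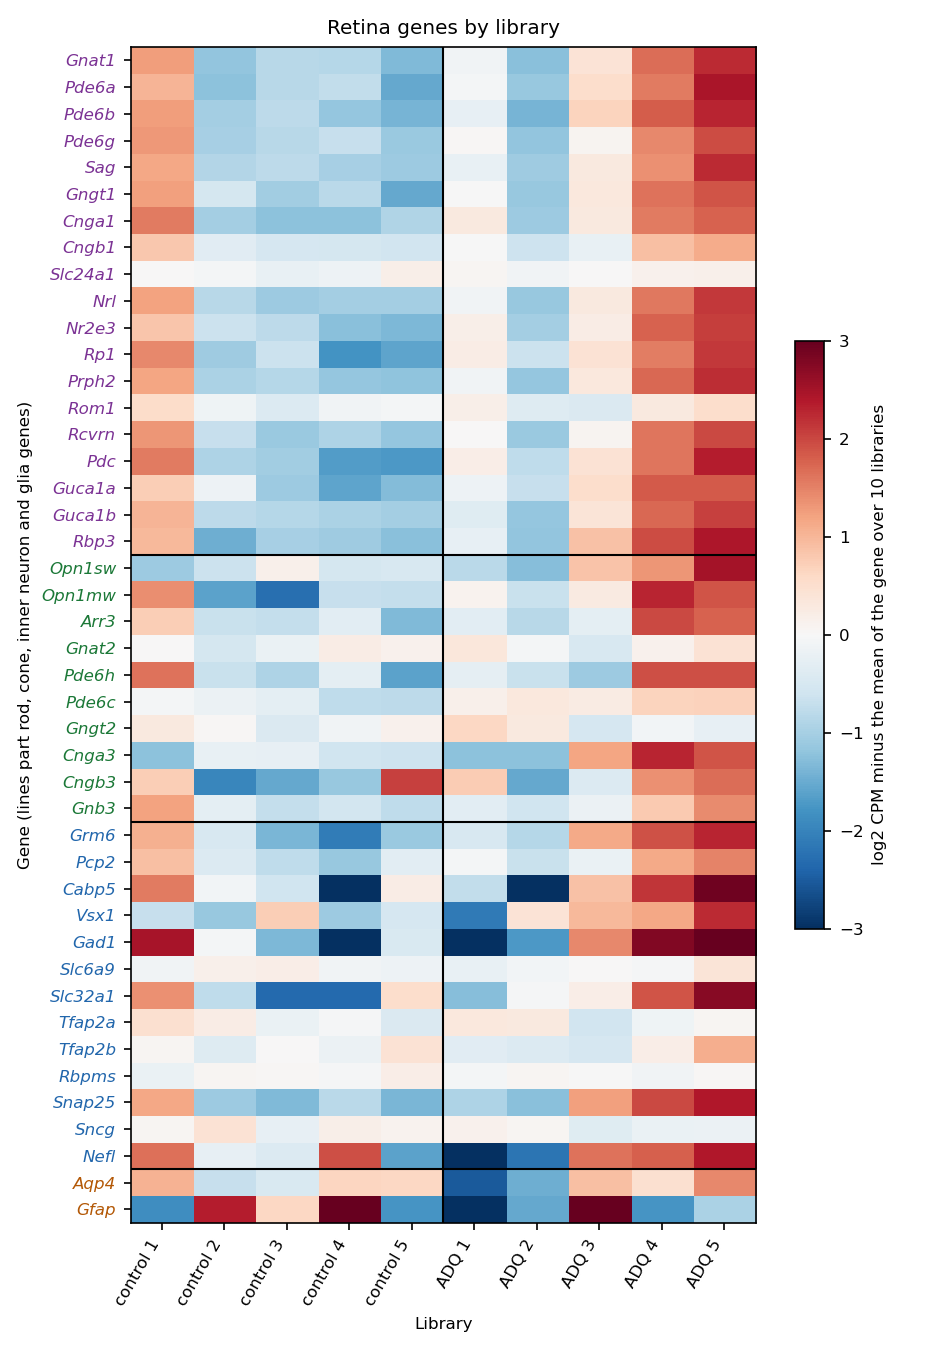
Log2 CPM of the 44 genes (rows) in the 10 libraries (columns), each gene centred on its own mean over the libraries; lines part rod, cone, inner neuron and glia genes and the groups. Most rod rows are red in control 1, ADQ 3, ADQ 4 and ADQ 5, while Slc24a1, Slc6a9 and Rbpms are nearly white throughout and Gfap is highest in control 4 and ADQ 3.

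Gnat1, the alpha subunit of rod transducin, shows the pattern of the rod genes. In control it was at 612, 114, 144, 142 and 103 CPM in replicates 1 to 5, and in ADQ at 241, 109, 342, 818 and 1230 CPM. Control 1 thus lay above 3 of the 5 ADQ libraries, and ADQ 2 lay among the low controls. The means were 223 ± 218 and 548 ± 465 CPM (SD, n = 5), a log2 fold change of 1.30 (SE 0.79, edgeR adjusted p = 0.488). Sag, rod arrestin, which shuts off the activated opsin, stood at 202, 49.5, 52.3, 45.4 and 42.4 CPM in control and at 77.9, 43.2, 110, 236 and 425 CPM in ADQ. The same 3 libraries, ADQ 5, ADQ 4 and control 1, were its highest, and its log2 fold change of 1.19 had an SE of 0.74 (adjusted p = 0.496). Pde6g, the inhibitory subunit of the rod phosphodiesterase, stood at 119, 24.3, 27.4, 30.1 and 22.5 CPM in control and at 49.7, 21.5, 51.2, 132 and 189 CPM in ADQ. Prph2, a tetraspanin that shapes the rims of outer segment discs, stood at 103, 23.7, 25.4, 20.3 and 19.8 CPM in control and at 42.3, 20.4, 56.7, 151 and 211 CPM in ADQ. Both repeat the order at the top, with adjusted p values of 0.565 (Pde6g) and 0.47 (Prph2).

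The rest of the rod cascade had the same libraries on top. Its members are Pde6a and Pde6b, the catalytic phosphodiesterase subunits, Gngt1, the transducin gamma subunit, Cnga1 and Cngb1, the cyclic GMP-gated channel, and Pdc, which binds transducin beta and gamma. So did Rcvrn, a calcium sensor that restrains the opsin kinase, Guca1b, which activates guanylate cyclase, Rp1 of the axoneme, Rbp3, the retinoid carrier between photoreceptors and RPE, and the rod transcription factors Nrl and Nr2e3. In all, 16 of the 19 had ADQ 5, ADQ 4 and control 1 as their highest libraries in that order. Guca1a, another cyclase activator, was at 0.802, 0.414, 0.195, 0.129 and 0.166 CPM in control and at 0.411, 0.274, 0.687, 1.78 and 1.76 CPM in ADQ, with ADQ 4 just above ADQ 5. It had the smallest p of the class by edgeR's test (log2 fold change 1.53, adjusted p = 0.3) and the lowest CPM of the class. Rbp3, with means of 30.5 ± 28 CPM in control and 102 ± 86.9 CPM in ADQ (SD, n = 5), had the largest difference of the class (log2 fold change 1.75, SE 0.80, edgeR adjusted p = 0.383).

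All 19 log2 fold changes were above 0 (51.8% over all genes), between 0.08 and 1.75, with a median of 1.24, and none was called. They are not 19 separate observations, since they share the same libraries and the same order of them. The median was 2.00 without control 1 and 0.75 without ADQ 5. With the level of the other photoreceptor genes as a covariate it was -0.13. Of the 19, the authors' deposited table lists 18, all with a log2 fold change above 0, with a median of 1.33. None of the 18 has an adjusted p under 0.05 there, where 5.42% of 15860 genes do.

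Most rod genes kept their proportion to Gnat1 within 3-fold over the libraries. Pde6a lay between 2.07% and 2.78% of Gnat1 CPM in every library, while its own level varied 16-fold. Prph2 lay between 14.3% and 20.8%, Nrl between 3.28% and 5.01%, and Sag between 28.8% and 43.6%. Of the 18 rod and general photoreceptor genes set against Gnat1, 14 had a highest ratio under 3 times the lowest. Among these 14 it ran from 1.35 times in Pde6a to 2.95 times in Rp1. These are ratios of counts and not corrected for transcript length. Gnat1 itself varied from 103 to 1230 CPM.

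Slc24a1, Rom1, Cngb1 and the sparse Guca1a broke the proportion. Slc24a1, the sodium, calcium and potassium exchanger of rods, was at 250, 243, 215, 225 and 281 CPM in control and at 260, 232, 254, 272 and 278 CPM in ADQ. The highest library held 1.31 times the lowest, and the groups overlapped (log2 fold change 0.09, SE 0.09, adjusted p = 0.664). Per kilobase of exon it averaged 48.2 CPM, above the 14.4 CPM of Sag. Rom1, the disc rim partner of Prph2, was at 403, 253, 206, 257 and 266 CPM in control and at 311, 211, 206, 337 and 399 CPM in ADQ. It was highest in control 1 and ADQ 5, but the spread was 1.96-fold (log2 fold change 0.08, adjusted p = 0.888). Per kilobase its 188 CPM was the highest of all 44 genes, above the 127 CPM of Gnat1. Cngb1 ran from 18.1 to 60.4 CPM, a 3.34-fold spread in the rod order. In control 5, where Gnat1 was lowest at 103 CPM, Slc24a1 was at its highest, 281 CPM.

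Promoters of Sag and Rbp3, which varied widely (14.8 to 223 CPM in Rbp3), and of Slc24a1, which did not, are shown here. The 250 bases before the start were read on the strand of the gene (RefSeq, GRCm38.p6). The letters TAATCC, core of the sites of Crx, a homeodomain factor of photoreceptors, and TGCTGA, core of the sites of Nrl, were searched on both strands, and matches are in capitals; the motifs do not overlap here. Sag lies at chr1:87803430-87803679 (+), Rbp3 at chr14:33953753-33954002 (+) and Slc24a1 at chr9:64951621-64951870 (-).
Sag: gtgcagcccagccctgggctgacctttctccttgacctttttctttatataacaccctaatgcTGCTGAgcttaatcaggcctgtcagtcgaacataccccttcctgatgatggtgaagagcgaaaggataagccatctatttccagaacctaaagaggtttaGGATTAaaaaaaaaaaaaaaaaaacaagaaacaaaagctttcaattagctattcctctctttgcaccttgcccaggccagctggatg
Rbp3: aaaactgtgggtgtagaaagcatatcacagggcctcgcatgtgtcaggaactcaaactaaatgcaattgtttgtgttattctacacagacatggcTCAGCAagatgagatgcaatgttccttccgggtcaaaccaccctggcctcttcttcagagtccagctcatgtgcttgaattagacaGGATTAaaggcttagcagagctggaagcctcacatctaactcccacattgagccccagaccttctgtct
Slc24a1: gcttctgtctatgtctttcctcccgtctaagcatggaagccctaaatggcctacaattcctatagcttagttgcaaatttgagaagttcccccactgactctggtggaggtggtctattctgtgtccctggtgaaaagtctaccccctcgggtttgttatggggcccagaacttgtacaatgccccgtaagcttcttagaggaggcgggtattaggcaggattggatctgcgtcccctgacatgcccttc
Sag and Rbp3 hold 1 match of each motif, and Slc24a1 holds none. Among the 13 rod and general photoreceptor genes with an entry, 6 hold TAATCC and 3 hold TGCTGA, against 6.25% and 16.08% of 32851 promoters of this length. Pdc, Prph2, Nrl and Nr2e3, which varied as widely as Sag, hold neither motif. Neither does Rom1, with a 1.96-fold spread, while Cngb1, with a 3.34-fold spread, holds TAATCC. Whether the motifs go with the spread between libraries was not tested. A match is a description of these letters, not a bound site.

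Cone genes showed several patterns. Opn1mw, the M opsin, Arr3, cone arrestin, Pde6h, the inhibitory subunit of the cone phosphodiesterase, and Gnb3, a transducin beta subunit of cones and bipolar cells, had ADQ 4, ADQ 5 and control 1 as their 3 highest libraries. Opn1sw, the S opsin, Gnat2, Gngt2 and Pde6c did not. All 9 cone genes tested had higher ADQ than control means by the fit, where 51.8% of all genes did. Their median log2 fold change was 0.82, and none was called. The median was 0.42 without ADQ 5, 0.44 without ADQ 4 and -0.14 with the photoreceptor covariate. Cnga3, a subunit of the cone channel, failed the count filter, with 0 counts in control 1, ADQ 1 and ADQ 2 (up to 0.0687 CPM allowed by 3 counts in control 1) and at most 0.418 CPM, in ADQ 4. Cngb3, its partner, was highest in control 5 (0.914 CPM) and ran down to 0.0197 CPM in control 2 (log2 fold change 0.36, SE 0.91).

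Pde6c, the catalytic subunit of the cone phosphodiesterase, was the single member whose groups did not overlap. It was at 5.87, 5.39, 5.01, 3.58 and 3.57 CPM in control and at 6.84, 7.63, 7.21, 9.76 and 9.97 CPM in ADQ. Every ADQ library lay above every control library, with means of 4.68 ± 1.05 and 8.28 ± 1.47 CPM (SD, n = 5). The log2 fold change was 0.82 (SE 0.18), and edgeR's adjusted p of 0.0574 missed the threshold. That is 1 of 42 members (2.38%), and 3.16% of all genes tested had groups that did not overlap. The call depended on the method. Pde6c was called in 5 of 20 alternatives, among them DESeq2 (adjusted p = 0.00124) and voom with quality weights (0.0147), and in the authors' deposited table (log2 fold change 0.90, adjusted p = 0.0106). It was not called in any fit that left out 1 library (edgeR adjusted p from 0.0509 to 0.158). With the other photoreceptor genes as covariate the log2 fold change was 0.60 (SE 0.18, adjusted p = 0.194).

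The summed genes of cornea and conjunctiva were at 251 to 2650 CPM in control and 215 to 239 CPM in ADQ. Their mean log2 level over all 10 genes overlapped between the groups, with control 2 (-0.10) beside ADQ 2 (-0.09). Pde6c was set against another mean, that of the 8 genes that passed the count filter, without Krt12 and Krt14. The overlap above is that of the 10-gene mean and need not hold for this one. Over the 10 libraries the correlation of Pde6c with the 8-gene mean was negative (r = -0.74, rho = -0.87, permutation p = 0.015 and 0.002). Neither passed adjustment over 588 relations (adjusted p = 0.092 and 0.097), and r was -0.73 without controls 3 and 5. The permutations ignored group, and Pde6c was higher in every ADQ library, so this relation is not separate from the group difference. The part of surface epithelium in the Pde6c difference was not tested.

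Pde6c did not keep proportion with the rod genes. Its level ran from 0.811% to 6.99% of Gnat1 CPM, and ADQ 2, with 109 CPM of Gnat1, held 7.63 CPM of Pde6c against 5.87 CPM in control 1, with 612 CPM of Gnat1. The 35 tested genes of the list of other photoreceptor genes held none that was called, with 10 at an unadjusted p under 0.05, and their median log2 fold change was 1.05. Prom1, a protein of outer segment discs that epithelia also make, had the smallest p there. Its mean was 15.5 CPM in control and 27.1 CPM in ADQ (adjusted p = 0.178). Kcnv2, a potassium channel subunit of photoreceptors, followed with a log2 fold change of 0.80 (adjusted p = 0.179). Rgs9, which speeds the shut-off of transducin, lay the other way, with 66.3 CPM in control and 52.0 CPM in ADQ (log2 fold change -0.35, adjusted p = 0.253).

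**Figure D2:**
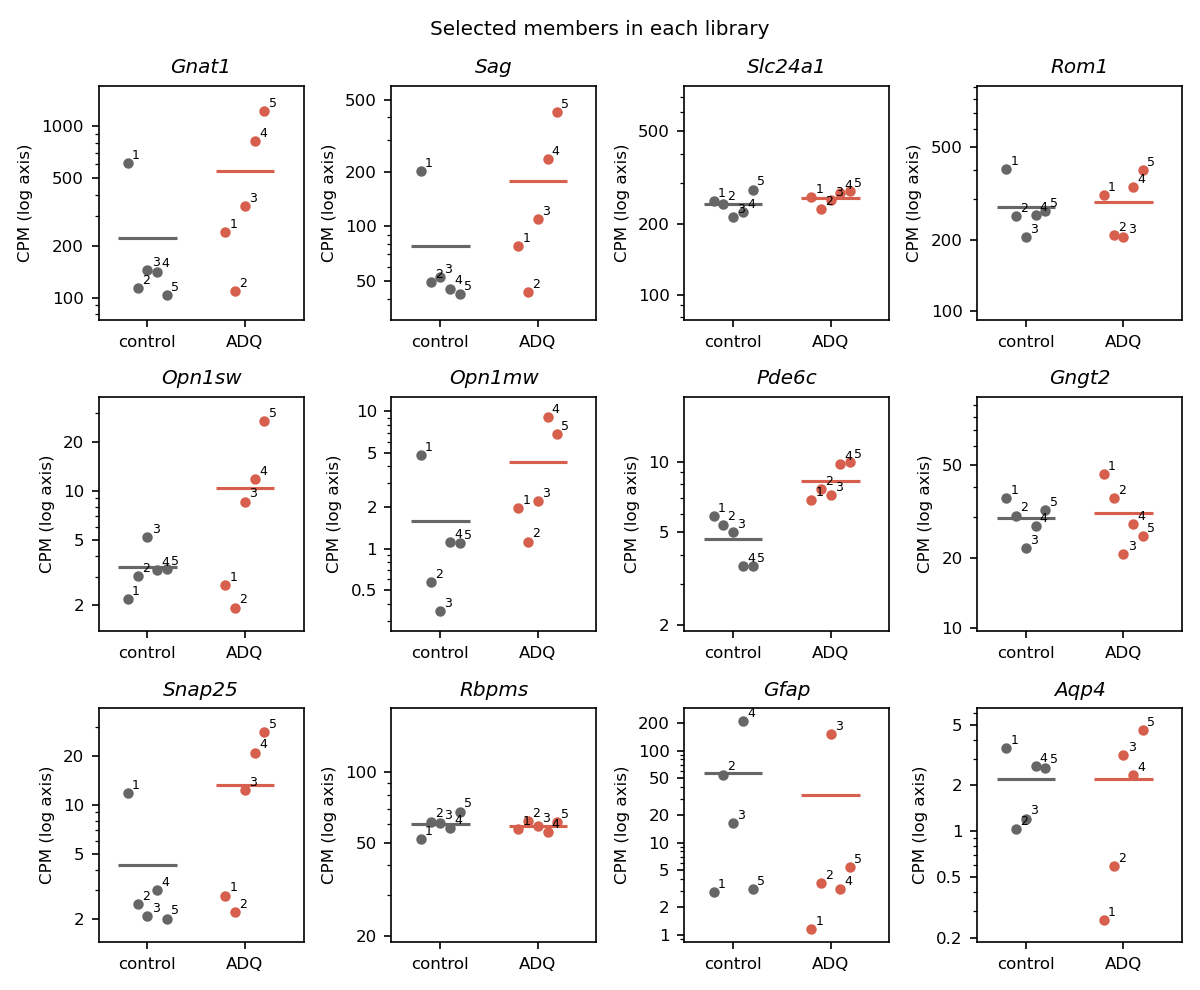
CPM (log axes, each spanning at least 10-fold) of 12 members in each library, numbered by replicate, with the group mean as a line. Gnat1, Sag and Snap25 spread widely in both groups, Pde6c has every ADQ library above every control library, and Slc24a1, Rom1, Gngt2 and Rbpms stay within narrow bands.

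The S and M opsins had different orders. Opn1sw was at 2.18, 3.02, 5.25, 3.28 and 3.35 CPM in control and at 2.66, 1.94, 8.62, 11.8 and 26.8 CPM in ADQ (means 3.41 ± 1.13 and 10.4 ± 10.1 CPM, SD, n = 5; edgeR adjusted p = 0.341). Opn1mw was at 4.83, 0.572, 0.351, 1.12 and 1.1 CPM in control and at 1.97, 1.13, 2.23, 9.08 and 6.82 CPM in ADQ (log2 fold change 1.42, SE 0.81, adjusted p = 0.46). Control 1, the highest control in Opn1mw and in the rod genes, was the lowest control in Opn1sw. The ratio of Opn1sw to Opn1mw CPM ran from 0.45 in control 1 to 14.9 in control 3, a 33.2-fold range, while that of Sag to Arr3 ran from 12.1 to 29.0. This ratio was chosen after the values were seen. In the mouse retina S opsin is richer in the ventral part and M opsin in the dorsal part; which part of the eye each sample held is not given. Opn1sw (chromosome 6, 29376671 to 29388468, GRCm38) shares 15.5% of its exon bases with Calu on the opposite strand, which stood at 157 to 259 CPM, so without strand reads of Opn1sw there cannot be told apart from reads of Calu.

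**Figure D3:**
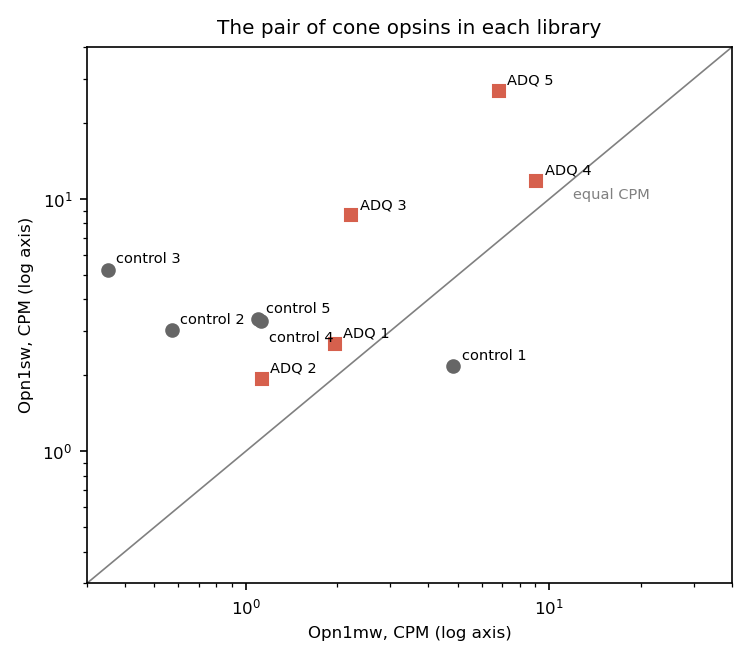
CPM of Opn1sw against Opn1mw in each library (log axes; circles control, squares ADQ; the line marks equal CPM). Control 1 is the single library under the line, and controls 2 and 3 lie farthest above it.

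The promoters of the opsins follow, read and marked as above, at chr6:29380514-29380763 (-) for Opn1sw and chrX:74127216-74127465 (+) for Opn1mw.
Opn1sw: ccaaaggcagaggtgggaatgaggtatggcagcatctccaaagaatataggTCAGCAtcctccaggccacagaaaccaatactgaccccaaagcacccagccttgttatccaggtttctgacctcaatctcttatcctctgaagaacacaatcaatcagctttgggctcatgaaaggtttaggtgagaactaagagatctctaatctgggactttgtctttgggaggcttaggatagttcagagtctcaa
Opn1mw: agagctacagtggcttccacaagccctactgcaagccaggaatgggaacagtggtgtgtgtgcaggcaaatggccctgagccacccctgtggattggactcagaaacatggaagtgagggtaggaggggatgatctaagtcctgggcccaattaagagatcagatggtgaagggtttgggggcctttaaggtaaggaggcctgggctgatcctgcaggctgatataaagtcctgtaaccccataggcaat
The RefSeq start of Opn1sw lies inside the gene's span in the GRCm38 annotation, so the window shown is that of the RefSeq start. Opn1sw holds 1 match of TGCTGA, on the opposite strand, and Opn1mw holds neither motif.

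Gnat2 and Gngt2, the alpha and gamma subunits of cone transducin, were steady. Gnat2 was at 23.6, 16.3, 20.7, 27.2 and 25.8 CPM in control and at 29.7, 22.8, 16.9, 25.8 and 31.4 CPM in ADQ (log2 fold change 0.16, SE 0.17, adjusted p = 0.695). Gngt2 was at 35.9, 30.3, 22.0, 27.3 and 32.1 CPM in control and at 45.6, 36.0, 20.7, 27.9 and 24.7 CPM in ADQ (log2 fold change 0.07, adjusted p = 0.895). The highest Gngt2 libraries were ADQ 1 and ADQ 2, which were also the highest in the summed macrophage genes. The summed level of 12 macrophage and microglia genes, 2 of which were higher in ADQ (Aif1 and Adgre1, edgeR adjusted p = 0.00756 and 0.0476), ran from 2010 to 2640 CPM in control and from 2150 to 3510 CPM in ADQ. Gngt2 also shares 12.5% of its exon bases with Abi3 on the opposite strand, which reached 5.15 CPM. The part of macrophages in Gngt2 was not tested. Rod to cone ratios therefore differed by pair. Gnat1 to Gnat2 ran from 3.99 to 39.1, Pde6b to Pde6c from 1.28 to 12.6 and Gngt1 to Gngt2 from 0.222 to 3.11, while Pde6g to Pde6h stayed between 16.2 and 52.6. Gnb3 was at 29.4, 10.4, 7.8, 8.65 and 7.5 CPM in control and at 10.1, 8.41, 11.4, 21.8 and 34.3 CPM in ADQ (log2 fold change 0.44, adjusted p = 0.739). In Cnga1 with Cnga3 and Cngb1 with Cngb3 the cone partner had too few counts for a ratio.

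The 4 bipolar cell members were highest in ADQ 5, with ADQ 4 next. Grm6, the glutamate receptor of ON bipolar cells, was at 0.71, 0.217, 0.0975, 0.0431 and 0.125 CPM in control and at 0.216, 0.157, 0.744, 1.3 and 1.7 CPM in ADQ. It had the smallest p of the inner neuron genes (log2 fold change 1.80, SE 0.77, edgeR adjusted p = 0.331). Pcp2, a modulator of G proteins in bipolar cells, ran from 0.647 to 4.19 CPM. It shares 51.5% of its exon bases with Pet100 on the opposite strand, so their reads cannot be told apart without strand. Cabp5, a calcium-binding protein, had 0 counts in control 4 and ADQ 2 and at most 2.63 CPM, in ADQ 5. Vsx1, a transcription factor of cone bipolar cells, failed the count filter, with at most 0.789 CPM, also in ADQ 5. Further bipolar genes did not share 1 order: Lrtm1 was highest in ADQ 5 (4.04 CPM), but Car8 in control 2 (23.5 CPM), Nyx in control 5 (1.5 CPM) and Rgs16 in ADQ 1 (5.91 CPM). Of the 12 tested 0 were called by edgeR, with 1 at an unadjusted p under 0.05. Among them Prkca, of rod bipolar cells and many others, had the smallest p, with 18.9 CPM in control and 23.5 CPM in ADQ (log2 fold change 0.32, adjusted p = 0.143). Rgs16 and Lrtm1 came next, with adjusted p values of 0.439 and 0.501.

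Among genes of amacrine and horizontal cells, Gad1 and Slc32a1 varied and Slc6a9, Tfap2a and Tfap2b had another order. Gad1, which makes GABA, had 0 counts in control 4 and ADQ 1, and reached 2.47 CPM in control 1, 3.08 CPM in ADQ 4 and 6.78 CPM in ADQ 5. Slc32a1, the vesicular GABA and glycine transporter, had 0 counts in controls 3 and 4 and at most 1.28 CPM, in ADQ 5. Slc6a9, a glycine transporter, was at 119, 142, 147, 120 and 115 CPM in control and at 110, 122, 129, 126 and 168 CPM in ADQ, a 1.53-fold spread (log2 fold change 0.03, adjusted p = 0.939). It shares 27.8% of its exon bases with Ccdc24 on the opposite strand, which reached 1.71 CPM. Tfap2a was at 6.21, 5.13, 3.86, 4.31 and 3.22 CPM in control and at 5.45, 5.4, 2.98, 4.04 and 4.58 CPM in ADQ (adjusted p = 0.978). Tfap2b was at 5.16, 3.79, 5.01, 4.38 and 6.75 CPM in control and at 3.89, 3.72, 3.49, 5.74 and 10.6 CPM in ADQ (adjusted p = 0.862). Both encode AP-2 factors, which surface epithelium also makes. The part of the cornea and conjunctiva genes in the Tfap2a and Tfap2b values was not tested.

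Of the genes of ganglion cells and neurons in general, Snap25 followed the rods and Rbpms and Sncg did not. Snap25, a protein of synaptic vesicle fusion, was at 11.8, 2.45, 2.07, 3 and 2 CPM in control and at 2.77, 2.19, 12.4, 21 and 28.2 CPM in ADQ (log2 fold change 1.65, SE 0.86, adjusted p = 0.423). Its 4 highest libraries were those of Gnat1. Rbpms, an RNA-binding protein that marks ganglion cells in the retina and is also made by muscle and stromal cells, was at 52.0, 61.6, 60.6, 58.0 and 67.9 CPM in control and at 57.0, 62.1, 59.1, 55.6 and 61.2 CPM in ADQ. The highest library held 1.31 times the lowest, and control 1, rich in rod genes, was the lowest. Sncg, gamma-synuclein, was at 28.4, 37.2, 23.0, 30.9 and 29.1 CPM in control and at 30.0, 28.5, 21.3, 23.9 and 24.2 CPM in ADQ (log2 fold change -0.22, SE 0.13, adjusted p = 0.462). Nefl, the light neurofilament chain, had 0 counts in ADQ 1 and was highest in ADQ 5 (6.61 CPM), control 4 (4.79 CPM) and ADQ 4 (4.31 CPM). It shares 32.8% of its exon bases with Nefm on the opposite strand, at most at 1.54 CPM. Of 15 further genes of amacrine, horizontal and ganglion cells tested, 0 were called by edgeR and 0 had an unadjusted p under 0.05. Slc17a6, the glutamate transporter of ganglion cells, was not above 0.725 CPM in any library. Among the 13 inner neuron genes, 12 were tested. Their log2 fold changes had a median of 0.61, and 9 lay above 0. The median was 0.19 without ADQ 5, 1.23 without control 1, 0.083 with the filter of at least 1 CPM in 5 libraries, which leaves 8 of these genes, and -0.12 with the photoreceptor covariate.

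The glial genes Gfap and Aqp4 had different orders. Gfap, the intermediate filament of astrocytes and reactive Müller cells, was at 2.89, 54.8, 16.3, 207 and 3.1 CPM in control and at 1.15, 3.64, 151, 3.1 and 5.45 CPM in ADQ. Control 4 and ADQ 3 stood far above the rest of their groups, and control 1 and ADQ 4, high in rod genes, were at 2.89 and 3.1 CPM. The log2 fold change was -0.79 (SE 1.67, adjusted p = 0.855), and it was 0.77 without control 4 and -4.08 without ADQ 3. Slc1a3, a glutamate transporter of astrocytes and Müller cells, was likewise highest in control 4 (44.9 CPM), ADQ 3 (36.4 CPM) and control 2 (15.5 CPM). Sox2, a transcription factor of Müller cells and astrocytes, had the same 3 highest libraries, at 3.73, 2.06 and 1.3 CPM. Both were picked from 15 further Müller cell and astrocyte genes after the values were seen, and that list did not share 1 order. Kcnj10 was highest in control 4 (6.23 CPM) and then ADQ 1 (3.7 CPM). Gpr37 was highest in control 1 (9.3 CPM), S100b in ADQ 1 (614 CPM) and Dkk3 in ADQ 5 (828 CPM). Myelin genes stood out in control 4. There Mobp, of oligodendrocyte myelin, was at 79.9 CPM against at most 1.64 CPM elsewhere, and the summed nerve sheath and myelin genes were at 936 CPM, against 242 CPM in the lowest control and 243 to 314 CPM in ADQ. The part of nerve tissue in Gfap was not tested. Of the 15 Müller cell and astrocyte genes 0 were called by edgeR, with 3 at an unadjusted p under 0.05. Several of the 15, such as Clu, are made by RPE as well. Clu, Glul and Aldh1l1 had the smallest p, with log2 fold changes of -0.29, -0.40 and 0.21 and adjusted p values of 0.325, 0.353 and 0.361.

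Aqp4, the water channel of Müller cell and astrocyte endfeet, was at 3.51, 1.03, 1.21, 2.67 and 2.62 CPM in control and at 0.26, 0.587, 3.17, 2.35 and 4.61 CPM in ADQ. The means were 2.21 ± 1.06 and 2.2 ± 1.81 CPM (SD, n = 5), with an adjusted p of 1. ADQ 5 and control 1 were its highest libraries and ADQ 1 its lowest, and the groups overlapped. Skeletal muscle, which also makes Aqp4, summed to 1600 to 3700 CPM over 12 genes in control and to 500 to 2740 CPM in ADQ. The lowest sums were those of ADQ 5 (500 CPM) and control 1 (1600 CPM), the highest libraries in Aqp4. ADQ 1, the lowest in Aqp4, came next at 2200 CPM. The part of muscle in Aqp4 was not tested.

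**Figure D4:**
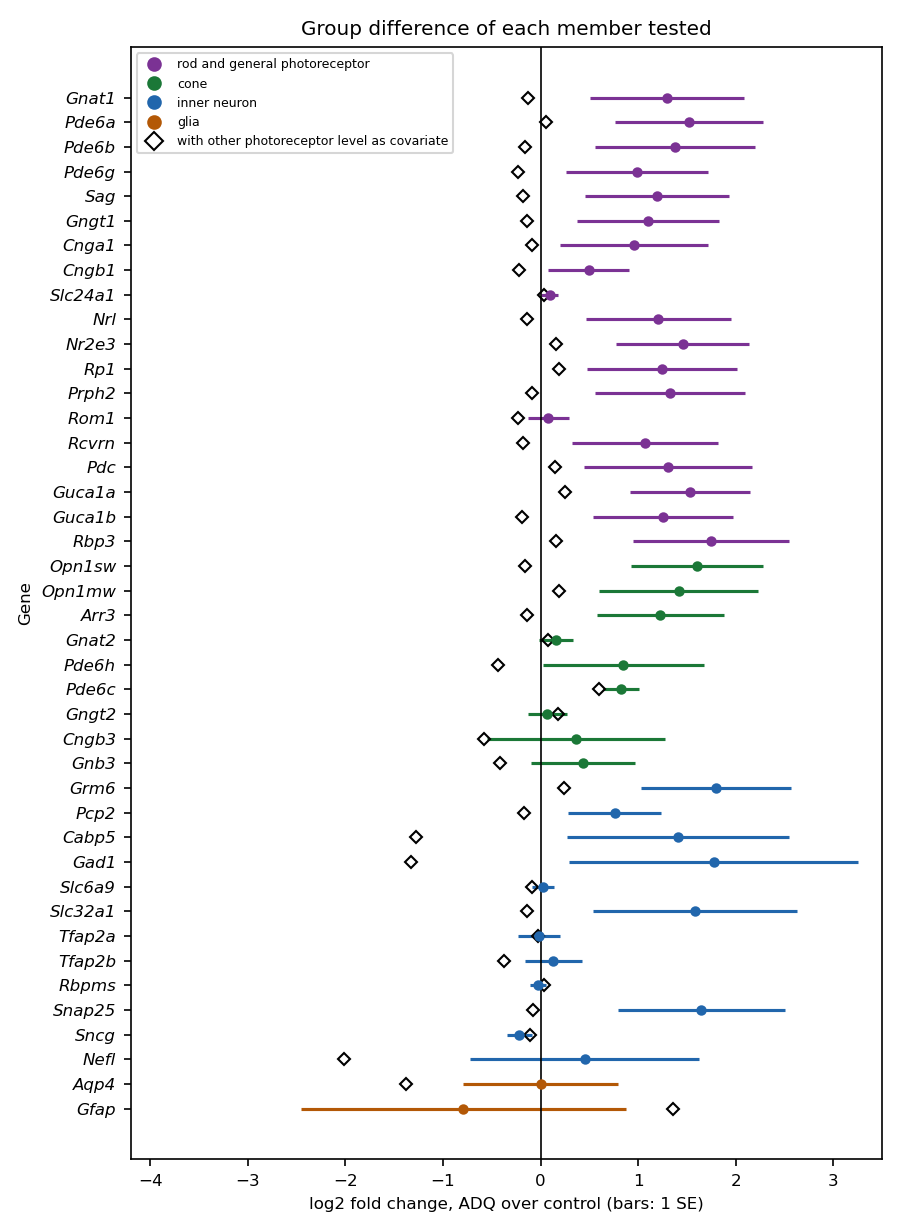
Log2 fold change, ADQ over control, of the 42 members tested (filled points by class, bars 1 SE), and the same with the level of the other photoreceptor genes as a covariate (open diamonds). The rod genes have a median of 1.24 (0.08 to 1.75) without and -0.13 with the covariate, and Pde6c stays at 0.60.

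How closely each gene followed the photoreceptors was described by its correlation, over the 10 libraries, with the mean log2 CPM of 35 photoreceptor genes that are no members. Pearson r was at least 0.9 in 23 of 42 members tested, 17 of the 19 rod and general photoreceptor genes, 3 of 9 cone genes, 3 of 12 inner neuron genes and 0 of 2 glial genes. Of all genes tested 0.638% reached that value. All genes share the same 10 libraries, so these relations are not independent of each other. Rbp3 had the closest relation (r = 1.00, Spearman rho = 0.99, each permutation p = 1e-05, the smallest that 100000 permutations give; adjusted p = 4.7e-05 and 0.00042 over 42 relations). Without the 2 libraries farthest from the median of that mean, ADQ 5 and ADQ 4, r was 0.99. Gnat1 had r = 0.99 and rho = 0.94 (permutation p = 1e-05 and 0.00024), and r = 0.98 without those libraries. Snap25 had r = 0.98 and rho = 0.81 (permutation p = 0.00011 and 0.0077), and r = 0.95 without them.

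Other members followed less closely or not at all. Opn1sw had r = 0.75 and rho = 0.47 (permutation p = 0.011 and 0.18), and r = 0.20 without ADQ 4 and ADQ 5, so its relation rests on those libraries. Pde6c had r = 0.75 and rho = 0.76 (permutation p = 0.014 and 0.016), and r = 0.46 without them. Rom1 had r = 0.70 and Slc24a1 r = 0.57, with rho = 0.50 and 0.37 (permutation p = 0.029 and 0.089 for r, 0.14 and 0.29 for rho). Gfap had r = -0.25 and rho = -0.27 (permutation p = 0.47 and 0.45). Rbpms and Sncg had r of -0.48 and -0.57 and rho of -0.58 and -0.67 (permutation p = 0.17 and 0.09 for r, 0.088 and 0.039 for rho; adjusted p = 0.06 for the rho of Sncg).

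**Figure D5:**
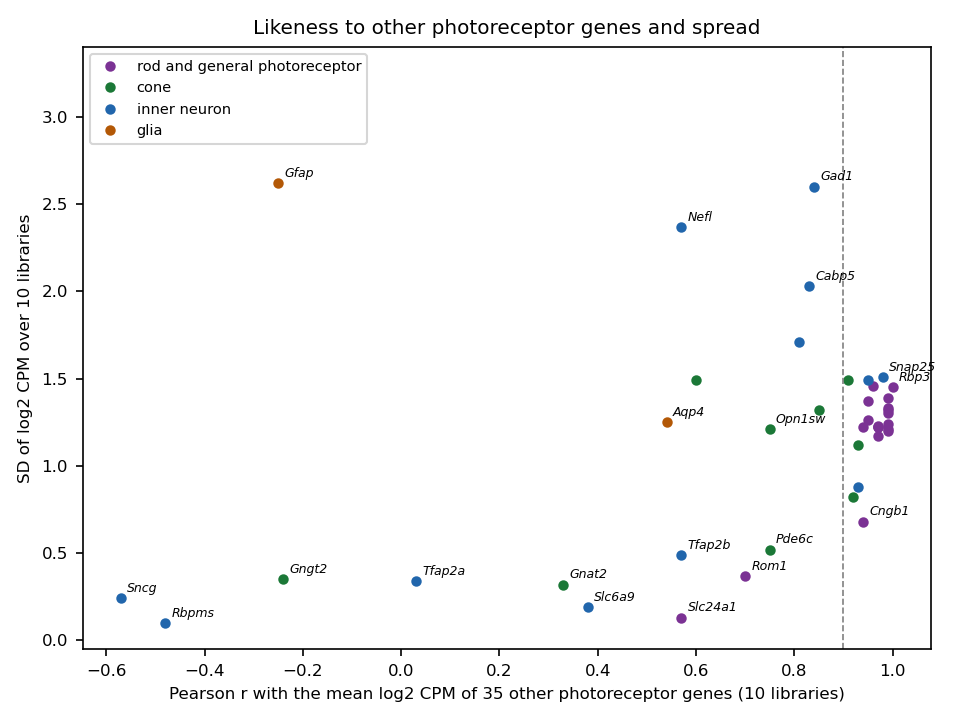
SD of log2 CPM over the 10 libraries against Pearson r with the mean of 35 other photoreceptor genes, 1 point a member (colours by class; the dashed line is r = 0.9). Rod genes crowd at r above 0.9 with an SD near 1.3, Slc24a1, Rom1, Slc6a9 and Rbpms lie low, and Gfap has the largest SD at an r of -0.25.

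Protein-coding genes that are no members and average 1 CPM or more numbered 13709. Those most like the mean of the 19 rod and general photoreceptor genes were found by r over the 10 libraries, as a description. Slc17a7, the glutamate transporter of photoreceptor and bipolar synapses, stood first (r = 0.995, mean 45.1 CPM). Reep6, an endoplasmic reticulum protein of rods, had r = 0.993. Tulp1 and Aipl1, needed for photoreceptor protein traffic and phosphodiesterase folding, had 0.991 and 0.989. Rtbdn (0.987), Ankrd33 (0.984), Cabp4 of the photoreceptor synapse (0.984), Fscn2 of outer segments (0.981) and Crb1 of the outer limiting membrane (0.98) were also among the 10 genes most like the rods.

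The members were set against the mean log2 CPM of the tested genes of 14 lists in the same way. These lists include the photoreceptor, bipolar, and amacrine, horizontal and ganglion cell genes that are no members. Of 588 relations 67 had an adjusted permutation p of r under 0.05, and relations with the photoreceptor list, described above, are among them. Of the members that did not follow the photoreceptors, Nefl varied with the further amacrine, horizontal and ganglion cell genes, the list that also holds Nefm (r = 0.81, rho = 0.82, permutation p = 0.0033 and 0.0059, adjusted p = 0.035 and 0.12). Without ADQ 5 and control 1 its r was 0.78. Rom1, which followed the photoreceptors in part (r = 0.70), and Gnat2 ran opposite to 10 genes of choroidal endothelium. Rom1 had r = -0.82 and rho = -0.83 (permutation p = 0.0048 and 0.0046, adjusted p = 0.045 and 0.11), and r = -0.82 without ADQ 5 and ADQ 1. Gnat2 had r = -0.84 and rho = -0.83 (permutation p = 0.0026 and 0.0044, adjusted p = 0.032 and 0.11), and r = -0.73 without those libraries.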

How the data were processed

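Messenger RNA of the RPE/choroid complex was sequenced from SMARTer cDNA, per the labels' protocols, in 10 libraries (43.6 M to 64.1 M counts). The authors deposited whole-number counts per Ensembl gene. Their deposited table of the comparison holds log2 CPM, log2 fold changes, p-values and scores (moderated t, log odds and a signed linear fold). DRAGEN, edgeR, limma, bcl2fastq and GRCm38 are named per the submitters' processing notes. No source used here gives the settings of counting or whether it used strand. The count table held 287 repeated entries of a gene, of which the first was kept.

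Counts were tested with edgeR 4.0.16 (R 4.3.3; filterByExpr, TMM, robust quasi-likelihood F test, Benjamini-Hochberg over all 20684 genes tested, threshold 0.05). Log2 CPM used a prior count of 2. Mean ± SD are of CPM. Alternatives used other scalings, filters, DESeq2 1.42.0, limma 3.58.1 voom with quality weights, a replicate block, the photoreceptor covariate and leaving out each library. The statistics were tested on simulated data. Positions and exon lengths came from the GRCm38 annotation, and 30 of 44 members matched RefSeq promoters (GRCm38.p6). Values in every library are given for the members with the highest mean CPM and the smallest p of each class, fixed as a rule with the lists and rod and cone pairs. From every other list the genes called, or up to 3 with the smallest p, were eligible for naming. The opsin ratio, other members, Slc1a3, Sox2, Mobp, Slc17a6, Car8 and Nyx were named after their values were seen, outside the rule. Members and lists were chosen with earlier results of these data known. Among the 10 genes most like the rods, 1 is not reported here. No per-sample column was left unused.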

Additional observations from a re-analysis of the deposited data

Results flagged for a closer look

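Each of the 42 members tested was examined in both groups of 5, and in 25 of the 84 groups the highest library stood apart from the others by more than Dixon's 95% critical value of 0.71 for 5 samples. Chance flags about 5 in 100 such groups, and the members share their libraries, so these are not separate events.

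Control 1 stood above the other 4 controls in 23 genes. The rod and general photoreceptor genes were Gnat1 at 612 CPM, Pde6a at 12.6, Pde6b at 61.9, Pde6g at 119, Sag at 202, Gngt1 at 48.7, Cnga1 at 21.4 and Cngb1 at 49.6 CPM. Nrl at 23.5, Nr2e3 at 16.7, Rp1 at 11.7, Prph2 at 103, Rcvrn at 58.2, Pdc at 73.0, Guca1b at 61.9 and Rbp3 at 80.4 CPM belong to the same class. The cone genes were Opn1mw at 4.83, Pde6h at 6.58 and Gnb3 at 29.4 CPM. The inner neuron genes were Grm6 at 0.71, Pcp2 at 2.8, Gad1 at 2.47 and Snap25 at 11.8 CPM. Gfap stood apart in other libraries, control 4 at 207 CPM and ADQ 3 at 151 CPM.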

How the results depend on the processing

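The count of genes called was 171. It was 768 with DESeq2, 664 with voom and 694 with the replicate number as a block, and leaving out 1 library gave 78 (without control 4) to 357 (without control 5). The count of members called was 0, and 1 (Pde6c) with library size alone, without a low-count filter, with at least 1 CPM in 5 libraries, with DESeq2 and with voom. It was 0 in each fit that left out 1 library.

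Whether the replicate numbers in the titles pair the samples is not given. Same-number correlations ran from -0.11 to 0.16, with 1 of 5 over 0.1, and 2 of 10 libraries correlated best with their own number. Such correlations cannot decide whether the samples were paired. With the replicate block 0 members were called, and the class medians were 1.18 (rod), 0.83 (cone), 0.36 (inner neuron) and -0.90 (glia).

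With the photoreceptor covariate the class medians were -0.13 (rod) and -0.14 (cone), and among the members with values in every library log2 fold changes of the opposite sign were found for Gnat1 (-0.13), Rom1 (-0.23), Sag (-0.17), Prph2 (-0.087), Pde6g (-0.23), Gnb3 (-0.42), Opn1sw (-0.15), Slc6a9 (-0.085), Rbpms (0.035), Snap25 (-0.076), Tfap2b (-0.37) and Gfap (1.36). Among the other members the sign also turned for Nefl (0.45 to -2.01), Gad1 (1.77 to -1.33), Cabp5 (1.41 to -1.28), Pde6b, Gngt1, Cnga1, Cngb1, Nrl, Rcvrn, Guca1b, Arr3, Pde6h, Cngb3, Pcp2 and Slc32a1. Other reversals were of values near 0. They were Rbpms (0.056), Tfap2a (0.059) and Aqp4 (0.13) with library size alone, Aqp4 without a filter (0.015) and with the stricter one (0.005), and Gngt2 and Slc6a9 with voom (both -0.004). With the covariate a fall of the difference is built in for genes that correlate closely with it, as said above. Why signs turned beyond such a fall was not tested.

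Leaving out 1 library gave both signs for Rom1 (-0.058 to 0.26), Gngt2 (-0.11 to 0.18), Slc6a9 (-0.08 to 0.082), Rbpms (-0.069 to 0.022), Tfap2b (-0.25 to 0.26), Tfap2a (-0.12 to 0.12), Gfap (-4.08 to 0.77) and Aqp4 (-0.47 to 0.28). The cone median ran from 0.42 to 1.01 and the inner neuron median from 0.19 to 1.23. The glia median ran from -2.12 (without ADQ 3) to 0.42 (without control 4). Depth limits Cnga3, Vsx1, Cabp5, Gad1, Slc32a1 and Nefl, which had 0 counts in at least 1 library; 3 counts are 0.0464 to 0.0687 CPM.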
